A study of Mus musculus with 9 samples.

Results

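Histone acetylation is set by enzymes that add acetyl groups to lysines (acetyltransferases, or writers), enzymes that remove them (deacetylases, or erasers) and proteins that bind acetylated lysine (readers). The 29 genes described here are the 11 zinc-dependent histone deacetylases Hdac1 to Hdac11, the 7 NAD-dependent sirtuins Sirt1 to Sirt7, 9 acetyltransferases (Kat2a, Kat2b, Kat5, Kat6a, Kat6b, Kat7, Kat8, Ep300 and Crebbp), the corepressor Ncor1 and the bromodomain reader Brd3. They were taken by gene symbol from a table of 46095 symbols, all 29 were found, and all 29 passed the filter on low counts that left 14026 genes for testing. Acetylation of histones at enhancers and promoters accompanies the induction of inflammatory genes in macrophages, where corepressor complexes built on Ncor1 and Hdac3 hold many of these genes in check. Beta-hydroxybutyrate has been described as an inhibitor of class I deacetylases in other cells. The data are messenger RNA levels and hold no measure of acetylation or of enzyme activity.

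The cells were bone marrow-derived macrophages, grown in culture from marrow precursors, of wild-type Balb/c mice aged 6 weeks. There were 3 groups of 3 libraries: LPS plus BHB, LPS, and control. LPS is the usual short name of lipopolysaccharide, which macrophages sense through a Toll-like receptor, and BHB that of beta-hydroxybutyrate, a ketone body. The labels spell out neither and give no dose or time, and no group with BHB alone is described here. Nothing says that replicates came from separate cultures or mice, so p-values reflect only how far these libraries differ, which may be technical. Total counts ran from 29633411 to 32798920 per library. Levels are CPM, counts per 1000000 of a library's counts after TMM scaling. A gene is called when its p from the quasi-likelihood test of edgeR, adjusted by Benjamini-Hochberg over the 14026 genes, is under 0.05. Each call was recomputed under 16 alternatives, and where a library is left out the log2 fold change and adjusted p without it are given. Any value printed with an SE is a log2 fold change.

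Of the 9 macrophage markers, among them Csf1r and Cd68, all were tested, and their summed level was 15030 to 15560 CPM with LPS plus BHB, 9170 to 10490 CPM with LPS and 19330 to 22670 CPM in control. With LPS 2 of the 9 were higher and 7 lower than in control. Lymphocyte markers summed to at most 0.221 CPM, mast cell and basophil markers to at most 0.169 CPM, and neutrophil and precursor markers to at most 5.73 CPM in any library. The 6 erythroid and megakaryocyte markers summed to 1.45 to 2.10 CPM with LPS plus BHB, 0.396 to 0.839 CPM with LPS and 1.04 to 1.38 CPM in control. The 7 dendritic cell genes summed to 323 to 347 CPM with LPS plus BHB, 698 to 703 CPM with LPS and 60.6 to 65.9 CPM in control. Nearly all of it was Cd83, and the 3 of the 7 that were tested were all called higher with LPS than in control. Of these Zbtb46 averaged 13.6 CPM with LPS plus BHB, 20.3 CPM with LPS and 0.869 CPM in control, and Ccr7 3.01, 2.32 and 0.781 CPM in the same groups. Flt3, Xcr1, Clec9a and Siglech averaged at most 0.264 CPM in any group. The 8 stromal genes summed to 132 to 161, 98.1 to 109 and 6.00 to 14.4 CPM in the same groups, mostly Pdgfrb in the treated ones. In control Pdgfrb averaged 3.54 CPM, Col1a1 1.81 CPM and Col1a2 1.75 CPM. Col1a1 was at 1.01, 0.937 and 3.48 CPM and Col1a2 at 0.845, 0.428 and 3.97 CPM in control replicates 1, 2 and 3. The part of these genes in the results below was not tested. In bulk RNA fewer cells of a type and less RNA per cell cannot be told apart. Control replicates 2 and 3 held low counts of genes that LPS induces and control replicate 1 nearly lacked them (223, 213 and 0 counts of Il12b, and 67, 55 and 0 of Nos2). LPS plus BHB replicate 3 stood further from its own group than any other library did from its group, with chi-square per degree of freedom of 10.8 and 11.2 against its replicates. Each result that changed without these libraries is given with and without them.

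Most of the 29 genes were called between LPS and control, as were most genes in the table. With LPS 10 of the 29 genes were higher and 15 lower than in control, where 38.4% and 41.4% of all genes tested were called higher and lower, so the 25 called were close in share to the background (79.8% in either direction). The groups did not overlap in 24 of the 29, beside 82.7% of all genes. Only 1 of the rises was at least 2-fold, that of Sirt1, against 9 of the falls, those of Hdac5, Hdac7, Hdac9, Hdac10, Hdac11, Sirt3, Sirt5, Kat2a and Kat2b (18.7%, 26.3% and in either direction 45.0% of all genes). The median log2 fold change of the 29 was -0.17, beside -0.063 over all genes. Without control replicates 2 and 3 there were 9 higher and 14 lower. By library totals alone 7 were higher and 19 lower, and the split of all called genes was 4283 higher and 7084 lower, against 5390 and 5801 with TMM scaling. The median of all genes was then -0.34, a shift of -0.274 on the log2 scale. Between LPS plus BHB and LPS, 8 were higher and 5 lower, where 26.4% and 24.4% of all genes were called higher and lower, and 16 were not called (50.7% of all genes were called in either direction). The groups did not overlap in 15 of the 29, beside 56.7% of all genes. At least 2-fold changes were 1 rise, of Hdac7, and 1 fall, of Hdac10 (7.89%, 3.36% and in either direction 11.2% of all genes), and the median was 0.019, beside 0.0064 over all genes. Fewer of the 29 were called higher without LPS plus BHB replicate 3 (5 higher and 4 lower) or without LPS replicate 1 (5 and 5). More were without LPS plus BHB replicate 1 (10 and 5). Of all genes, 3486 and 3200, 3400 and 3104, and 3552 and 3273 were called higher and lower in these fits. With all 9 libraries they were 3697 and 3418.

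**Figure D1:**
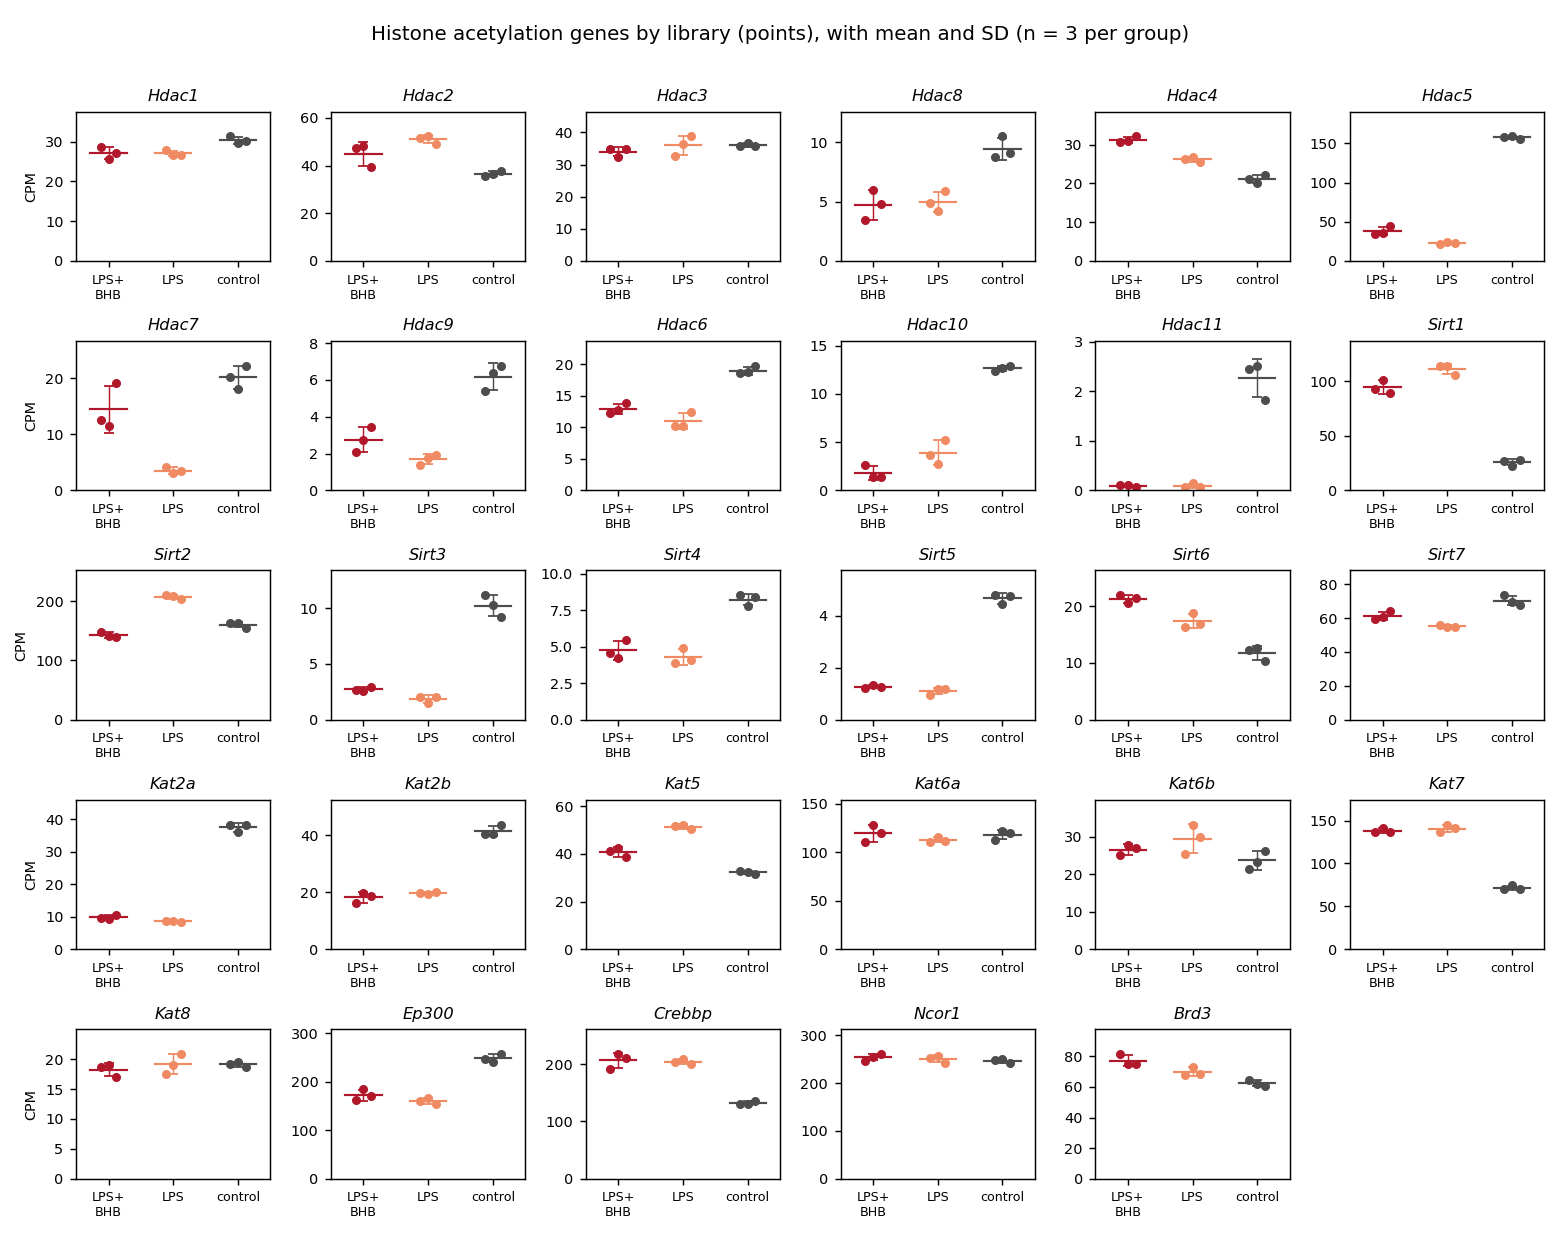
CPM of each of the 29 genes in each library (points; replicates 1 to 3 from left to right within a group), with the mean (line) and SD (bars, n = 3) for LPS plus BHB, LPS and control; each panel has its own axis from 0. Hdac5, Kat2a, Sirt3 and Hdac11 are high in control only, Sirt1 and Kat7 are high in both treated groups, and Hdac7 is low in the LPS libraries alone.

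Class I deacetylases (Hdac1, Hdac2, Hdac3 and Hdac8) are mostly nuclear catalytic subunits of corepressor complexes. Apart from Hdac8 their levels moved little. Hdac2, which with Hdac1 forms the core of the Sin3, NuRD and CoREST complexes, had 47.2, 48.2 and 39.3 CPM with LPS plus BHB, 51.6, 52.2 and 49.2 CPM with LPS and 35.5, 36.6 and 37.6 CPM in control. It was above control in all 6 treated libraries, 1.39-fold with LPS (log2 fold change 0.48, SE 0.07, adjusted p = 2.5e-06), and LPS plus BHB replicate 3 was the lowest of the treated ones. Between LPS plus BHB and control it was 0.30 (SE 0.07), or -0.03 by library totals alone. Against LPS it was slightly lower with BHB (log2 fold change -0.18, SE 0.07, adjusted p = 0.0339), a call lost without LPS plus BHB replicate 3 (-0.096, adjusted p 0.207), LPS replicate 1 (-0.17, adjusted p 0.09) or LPS replicate 2 (-0.17, adjusted p 0.104). Hdac8, which deacetylates the cohesin subunit Smc3, had 3.43, 5.97 and 4.8 CPM with LPS plus BHB, 4.91, 4.197 and 5.87 CPM with LPS and 8.73, 10.5 and 9.13 CPM in control. It was 1.89-fold lower with LPS (log2 fold change -0.92, SE 0.17, adjusted p = 6.2e-05), and LPS plus BHB and LPS overlapped (-0.078, SE 0.18).

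Hdac3, the enzyme that Ncor1 recruits and activates, stayed within narrow limits, at 34.03 ± 1.44 CPM with LPS plus BHB, 35.96 ± 3.09 CPM with LPS and 36.1 ± 0.617 CPM in control (SD). Neither step was called, with a log2 fold change of -0.079 (SE 0.069) for BHB added to LPS and of -0.0074 (SE 0.068) for LPS over control. The second changed sign with DESeq2's size factors and was -0.28, a called fall, by library totals alone. Hdac1 was at 27.1 ± 1.56 CPM with LPS plus BHB, 27.1 ± 0.667 CPM with LPS and 30.4 ± 0.875 CPM in control, a change of -0.17 for LPS (adjusted p = 0.0306; 5.9e-06 to 0.128 over 16 alternatives). That call was lost under 8 of the alternatives, among them leaving out control replicate 1 (-0.14, adjusted p 0.103), control replicate 3 (-0.17, adjusted p 0.0551), both control replicates 2 and 3 (-0.21, adjusted p 0.0757), LPS replicate 2 (-0.15, adjusted p 0.0814) or LPS replicate 3 (-0.15, adjusted p 0.0905). Transcripts of other genes hold 39.97% of the 31-base words of Hdac1, so its count is uncertain. Of the 4 class I genes 0 were called higher and 1 lower for BHB added to LPS, where 26.4% and 24.4% of all genes were.

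Class IIa deacetylases (Hdac4, Hdac5, Hdac7 and Hdac9) have little catalytic activity of their own, shuttle between nucleus and cytoplasm and repress MEF2 targets. With LPS 3 of the 4 fell and 1 rose, where 41.4% of all genes were called lower and 38.4% higher. All 4 were higher with LPS plus BHB than with LPS, where 26.4% of all genes were. Families were not tested against each other. Hdac5 (chromosome 11, 102194432 to 102230166, GRCm38), the most abundant of them in control, had 34.1, 35.8 and 44.3 CPM with LPS plus BHB, 21.8, 23.9 and 23.2 CPM with LPS and 158, 159 and 156 CPM in control. All 6 treated libraries were far below control, and the groups did not overlap in any pair. With LPS it was 6.87-fold lower (log2 fold change -2.78, SE 0.076, adjusted p = 6.7e-17), and with BHB added it was 1.66-fold above LPS (log2 fold change 0.73, SE 0.079, adjusted p = 2.9e-07) and still 4.14-fold below control. In all 4 class IIa genes LPS plus BHB replicate 3 was the highest of its group. Without it the rise of Hdac5 over LPS was 0.61, adjusted p 1.5e-08 and that of Hdac4 was 0.23, adjusted p 0.0128.

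The sequence upstream of the Hdac5 start is shown because Hdac5 had the largest fall with LPS after Hdac11, a gene of few counts, and it can be set beside that of Sirt1 below, the gene with the largest rise. It is the 250 bases before the RefSeq start on the minus strand (chr11:102230173-102230422, GRCm38.p6), 5′ to 3′, with capitals for a GC box (GGGCGG) and CCAAT boxes found on either strand.
Hdac5: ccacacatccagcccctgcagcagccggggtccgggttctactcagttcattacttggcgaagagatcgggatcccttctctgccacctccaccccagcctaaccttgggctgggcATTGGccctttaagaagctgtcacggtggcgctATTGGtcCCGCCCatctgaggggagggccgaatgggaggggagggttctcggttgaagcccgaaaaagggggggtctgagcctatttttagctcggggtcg
The window held 1 GC box and 2 CCAAT boxes, and none of the letters searched for E-box (CACGTG), CRE (TGACGTCA), AP-1 (TGANTCA), NF-kB, interferon-response (GAAA, any 2 bases, GAAA) or PU.1 (GAGGAAGT) motifs. Among 32851 RefSeq promoters the same upstream window held a GC box in 32.7% and a CCAAT box in 33.8%.

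Hdac7 (chromosome 15, 97792664 to 97844502) was the one gene of the 29 at which BHB gave a rise of 2-fold or more over LPS. Hdac7 had 12.6, 11.5 and 19.2 CPM with LPS plus BHB, 4.12, 3.01 and 3.39 CPM with LPS and 20.2, 18.1 and 22.2 CPM in control. The LPS libraries lay below all others, and LPS plus BHB replicate 3 lay above control replicate 2. It was 5.72-fold lower with LPS than in control (log2 fold change -2.52, SE 0.19, adjusted p = 3.9e-08) and 4.1-fold higher with LPS plus BHB than with LPS (log2 fold change 2.04, SE 0.20, adjusted p = 1.5e-06). Without LPS plus BHB replicate 3 the second value was 1.78, adjusted p 3.9e-10, and the call held. Against control it was lower with LPS plus BHB by a margin that depended on single libraries (log2 fold change -0.48, SE 0.17, adjusted p = 0.0174; adjusted p 7.8e-06 to 0.0787 over 16 alternatives). The call was lost without control replicate 3 (-0.41, adjusted p 0.0558), without control replicates 2 and 3 (-0.48, adjusted p 0.0787), without LPS plus BHB replicate 1 (-0.39, adjusted p 0.0739) and without LPS plus BHB replicate 2 (-0.34, adjusted p 0.0613).

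Hdac9 was low throughout and moved the same way. Hdac9 had 2.103, 2.74 and 3.42 CPM with LPS plus BHB, 1.38, 1.75 and 1.94 CPM with LPS and 5.38, 6.398 and 6.76 CPM in control. The 3 groups did not overlap. It fell by 1.87 on the log2 scale with LPS (SE 0.21, adjusted p = 6.6e-08) and rose by 0.70 with BHB added (SE 0.22, adjusted p = 0.0124; 0.00394 to 0.0782 over 16 alternatives). The rise lost its call without LPS plus BHB replicate 3 (0.52, adjusted p 0.0782) or LPS replicate 1 (0.58, adjusted p 0.0617). Hdac4 differed from the rest of its class in rising at both steps. Hdac4 had 30.8, 30.95 and 32.1 CPM with LPS plus BHB, 26.4, 26.8 and 25.5 CPM with LPS and 21.3, 20.1 and 22.2 CPM in control. Its log2 fold change was 0.31 (SE 0.069) for LPS over control and 0.25 (SE 0.069) for LPS plus BHB over LPS, and the first was 0.033 and not called by library totals alone. In one library the count of Hdac5 was 1.11 to 1.38 times that of Hdac4 with LPS plus BHB, 0.826 to 0.907 times with LPS and 7.01 to 7.90 times in control, a ratio that does not depend on scaling. The summed level per length of the class was 13.8 ± 1.93 CPM per kilobase with LPS plus BHB, 8.18 ± 0.120 with LPS and 35.3 ± 0.279 in control (SD, n = 3), whereas that of class I was 43.1 ± 1.00, 45.6 ± 1.18 and 46.2 ± 0.462.

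Class IIb and class IV deacetylases (Hdac6, Hdac10 and Hdac11) number 3, and all 3 fell with LPS, where 41.4% of all genes were called lower. Hdac11, the class IV enzyme, described in mouse and human antigen-presenting cells as a repressor of the interleukin 10 gene, had 3, 3 and 2 counts in the LPS plus BHB libraries, 2, 4 and 2 counts in the LPS libraries and 87, 94 and 66 counts in the control libraries. It was nearly absent from every treated library (log2 fold change -4.56, SE 0.45, adjusted p = 7.3e-09). With so few counts a difference between LPS plus BHB and LPS was not detectable at this depth (0.0078, SE 0.68), and genes on the other strand cover 26.01% of its exon length. Hdac10, a cytoplasmic polyamine deacetylase, was the only deacetylase called lower at both steps. Hdac10 had 2.61, 1.35 and 1.34 CPM with LPS plus BHB, 3.69, 2.69 and 5.27 CPM with LPS and 12.3, 12.7 and 12.9 CPM in control. The groups did not overlap, with a log2 fold change of -1.70 (SE 0.22) for LPS over control and -1.13 (SE 0.27) for LPS plus BHB over LPS (adjusted p = 3.3e-06 and 0.00217). The second value ran from -1.52 to -0.85 over 16 alternatives. The call held in each, but the fall was not 2-fold in all of them. Hdac6, the tubulin deacetylase, averaged 12.9 ± 0.803 CPM with LPS plus BHB, 10.96 ± 1.26 CPM with LPS and 18.96 ± 0.641 CPM in control (SD), a fall with LPS (-0.79, SE 0.097). For BHB added to LPS it just missed the threshold (log2 fold change 0.24, SE 0.10, adjusted p = 0.0521; 0.0126 to 0.177 over 16 alternatives) and passed it with a replicate block (0.24, adjusted p = 0.044), without LPS replicate 3 (0.33, adjusted p 0.0126) and without LPS plus BHB replicate 1 (0.28, adjusted p 0.0463).

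**Figure D2:**
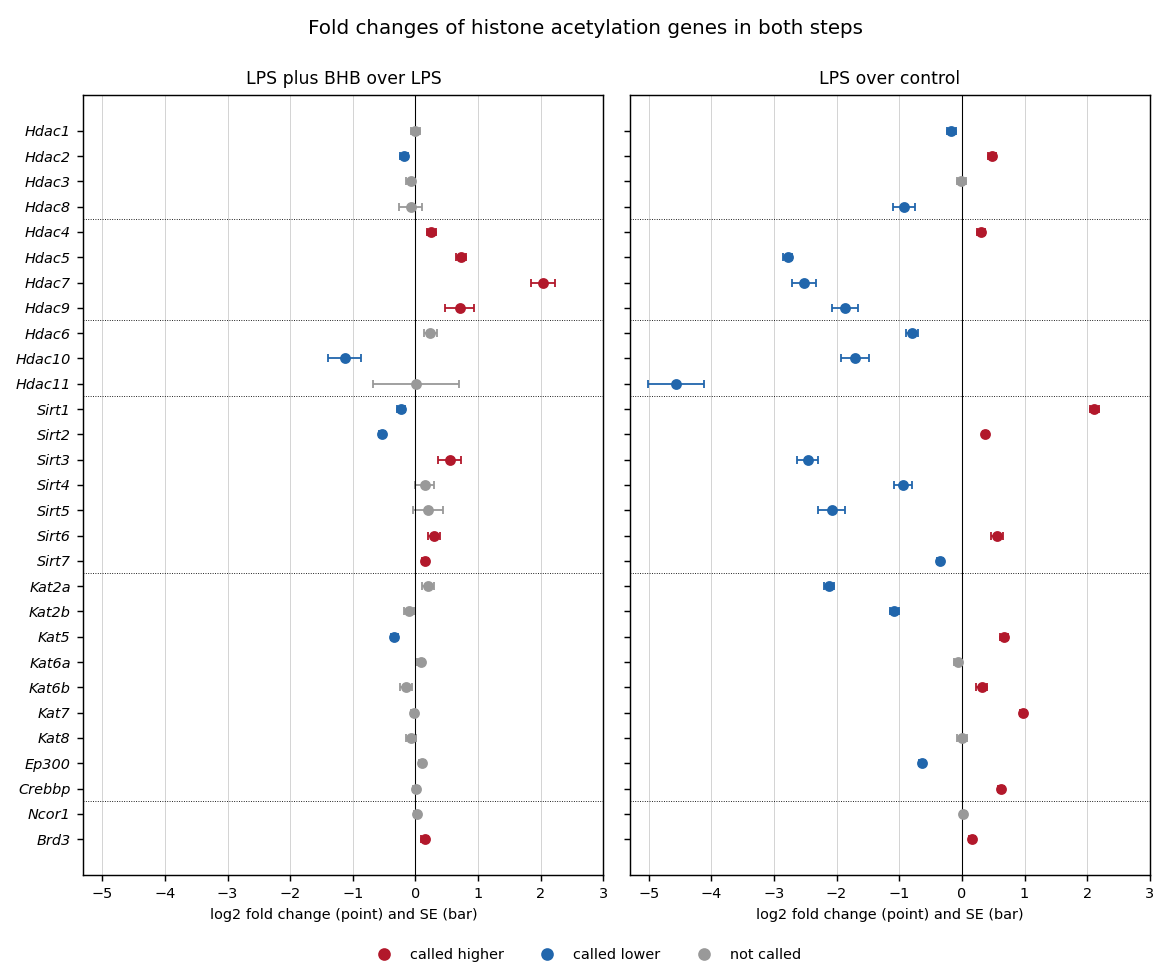
Log2 fold change (point) and SE (bar) of each gene for LPS plus BHB over LPS and for LPS over control, with dotted lines between class I, class IIa, class IIb and IV deacetylases, sirtuins, acetyltransferases, and Ncor1 with Brd3. The comparisons share the LPS libraries. All 4 class IIa genes lie right of 0 for BHB added to LPS, and Kat5 is the one acetyltransferase called there.

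Sirtuins use NAD as cosubstrate. With LPS 3 of the 7 rose (Sirt1, Sirt2 and Sirt6) and 4 fell (Sirt3, Sirt4, Sirt5 and Sirt7), where 38.4% and 41.4% of all genes were called higher and lower. Sirt1 (chromosome 10, 63319005 to 63381704), a nuclear deacetylase whose substrates include the p65 subunit of NF-kB, had 93.2, 101 and 89.4 CPM with LPS plus BHB, 114, 114 and 106 CPM with LPS and 27.1, 22.5 and 27.4 CPM in control. Every treated library was above every control library, and the rise with LPS was 4.32-fold (log2 fold change 2.11, SE 0.07, adjusted p = 7.6e-16). With BHB added it was lower than with LPS by 0.23 on the log2 scale (SE 0.065, adjusted p = 0.00597). The upstream window of Sirt1, again 250 bases on the minus strand (chr10:63339036-63339285, GRCm38.p6) with capitals for motif letters, can be set beside that of Hdac5. The RefSeq start lies inside the GENCODE span given above, which reaches further because of a longer transcript.
Sirt1: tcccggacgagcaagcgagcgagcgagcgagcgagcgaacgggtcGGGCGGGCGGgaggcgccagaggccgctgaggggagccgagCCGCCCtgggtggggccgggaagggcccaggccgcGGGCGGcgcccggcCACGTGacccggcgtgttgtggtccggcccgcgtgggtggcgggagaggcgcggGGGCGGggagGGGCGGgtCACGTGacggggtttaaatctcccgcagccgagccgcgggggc
It held 6 GC boxes, which overlap in 1 pair, and 2 E-boxes (CACGTG, found in 6.02% of the 32851 promoters), and no CCAAT box or other motif searched. Of the 36 RefSeq promoters listed for 25 of the 29 genes, 21 held a GC box (58.3%), 2 an E-box (5.56%), 7 the NF-kB letters (19.4%, beside 7.25% of all), 13 a CCAAT box (36.1%), 3 an AP-1 match (8.33%, beside 6.75%), 1 an interferon-response match (2.78%, beside 2.98%), 1 a PU.1 match (2.78%, beside 2.44%) and 0 a CRE (1.55% of all). The promoters with NF-kB letters belong to Sirt2, Sirt3, Sirt5, Sirt6, Kat6b and Ncor1, genes that rose, fell or were not called with LPS. The windows of Kat6b (chr14:21499520-21499769 and chr14:21499535-21499784) overlap and hold the same NF-kB match and GC boxes. They count as separate promoters, which raises the shares per promoter of these 2 motifs. By gene 6 of 25 held the NF-kB letters (24%), and the share by gene over all genes was not computed. A match describes letters only.

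Sirt2, mainly a cytosolic enzyme, was the most abundant member per length in every group. Sirt2 had 148, 141 and 139.6 CPM with LPS plus BHB, 209, 209 and 203 CPM with LPS and 162, 163 and 155 CPM in control. It was 1.29-fold higher with LPS than in control (log2 fold change 0.37, SE 0.043, adjusted p = 8.0e-08), and with BHB it was below both. It was 1.45-fold below LPS (log2 fold change -0.54, SE 0.043, adjusted p = 1.5e-09) and lower than control (-0.16, SE 0.043). Sirt6, a chromatin-bound deacetylase of histone H3, rose at both steps. Sirt6 had 21.9, 20.5 and 21.5 CPM with LPS plus BHB, 16.4, 18.8 and 16.9 CPM with LPS and 12.3, 12.6 and 10.3 CPM in control. Its log2 fold change was 0.56 (SE 0.094) for LPS over control and 0.29 (SE 0.091) for LPS plus BHB over LPS (adjusted p = 0.0106; 0.00691 to 0.0532 over 16 alternatives). The second was not called without LPS replicate 1 (0.25, adjusted p 0.0532).

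The mitochondrial sirtuins Sirt3, Sirt4 and Sirt5 were all lower with LPS. Sirt3, the main mitochondrial protein deacetylase, had 2.65, 2.54 and 2.96 CPM with LPS plus BHB, 2.01, 1.47 and 2.09 CPM with LPS and 11.2, 10.3 and 9.24 CPM in control. No LPS plus BHB library overlapped an LPS library, and both groups were far below control (log2 fold change -2.46, SE 0.17 for LPS). The rise with BHB (log2 fold change 0.55, SE 0.19, adjusted p = 0.0196; 0.0186 to 0.104 over 16 alternatives) lost its call when only the 6 libraries compared were fitted (0.54, adjusted p 0.0662), without LPS replicate 2 (0.41, adjusted p 0.104) and without LPS plus BHB replicate 3 (0.48, adjusted p 0.0633). Genes on the other strand cover 12.3% of its exon length. Sirt5, a desuccinylase, was at 1.27 ± 0.0496 CPM with LPS plus BHB, 1.104 ± 0.128 CPM with LPS and 4.67 ± 0.194 CPM in control (SD), with -2.08 (SE 0.22) for LPS over control and 0.20 (SE 0.24) for BHB added. Of the gene, 16.3% of the 31-base words occur in transcripts of other genes. Sirt4 was at 4.76 ± 0.647, 4.296 ± 0.5304 and 8.24 ± 0.393 CPM in LPS plus BHB, LPS and control (-0.94, SE 0.15 for LPS over control and 0.15, SE 0.16 for BHB added). Neither Sirt4 nor Sirt5 was called for BHB added to LPS. Sirt7, a nucleolar enzyme, was at 61.3 ± 2.35, 55.2 ± 0.768 and 70.2 ± 2.79 CPM in the same order. It fell with LPS (-0.35, SE 0.052) and was 0.15 (SE 0.053) higher with BHB added (adjusted p = 0.0222; 0.0178 to 0.127 over 16 alternatives). The second call was lost by library totals, with no filter, and without LPS replicate 2 (0.14, adjusted p 0.0679), LPS replicate 3 (0.14, adjusted p 0.0619) or LPS plus BHB replicate 3 (0.12, adjusted p 0.0795).

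Within one library, Sirt1 had 0.629 to 0.719 times the counts of Sirt2 with LPS plus BHB, 0.519 to 0.544 times with LPS and 0.139 to 0.177 times in control. The summed sirtuin level per length was 132 ± 0.878 CPM per kilobase with LPS plus BHB, 159 ± 2.77 with LPS and 132 ± 4.002 in control (SD, n = 3). The sums with LPS plus BHB and in control differed by less than their SDs. Each of the 7 genes was called between these groups, where 78.4% of all genes were called.

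Of 9 acetyltransferases 4 were higher and 3 lower with LPS, where 38.4% and 41.4% of all genes were, so that the share called was near the background. With BHB added to LPS 0 were higher and 1 lower, where 26.4% and 24.4% of all genes were. The pair of GCN5-family enzymes, catalytic subunits of the SAGA and ATAC coactivators, both fell with LPS. Kat2a (GCN5; chromosome 11, 100704746 to 100712465) had 9.73, 9.31 and 10.6 CPM with LPS plus BHB, 8.74, 8.64 and 8.42 CPM with LPS and 38.3, 36 and 38.2 CPM in control. Kat2b (PCAF) had 16.2, 19.8 and 18.7 CPM with LPS plus BHB, 19.7, 19.2 and 20.05 CPM with LPS and 40.5, 40.3 and 43.6 CPM in control. All treated libraries were below control for both genes, 4.36-fold for Kat2a (log2 fold change -2.12, SE 0.082, adjusted p = 1.2e-15) and 2.11-fold for Kat2b (log2 fold change -1.08, SE 0.077, adjusted p = 4.0e-11). BHB added to LPS gave 0.20 (SE 0.09) for Kat2a, whose LPS plus BHB libraries lay just above the LPS ones without a call (adjusted p = 0.0725), and -0.11 (SE 0.081) for Kat2b. Other genes' transcripts hold 14.6% of the 31-base words of Kat2b.

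The paralogues Ep300 and Crebbp, coactivators that acetylate histone H3 at active enhancers, moved apart. Ep300 had 162, 185 and 170.0 CPM with LPS plus BHB, 159.5, 167 and 154 CPM with LPS and 248, 241 and 257 CPM in control. Crebbp had 191, 217 and 211 CPM with LPS plus BHB, 204, 208 and 200.2 CPM with LPS and 131, 129.7 and 136 CPM in control. Ep300 was below and Crebbp above control in every treated library. With LPS Ep300 fell by 0.63 (SE 0.05, adjusted p = 2.3e-10) and Crebbp rose by 0.63 on the log2 scale (SE 0.048, adjusted p = 1.5e-10). In one library Crebbp had 1.18 to 1.24 times the counts of Ep300 with LPS plus BHB, 1.25 to 1.30 times with LPS and 0.528 to 0.538 times in control, a measure free of scaling. This ratio and those above were chosen after the values were seen and are not tested. BHB changed neither beyond the threshold (0.11, SE 0.051 for Ep300 and 0.016, SE 0.048 for Crebbp), although Ep300 passed it without LPS plus BHB replicate 1 (0.15, adjusted p 0.0239; adjusted p 0.0239 to 0.429 over 16 alternatives).

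Of the MYST-family enzymes Kat5, Kat6b and Kat7 were called higher with LPS, and Kat6a and Kat8 were not called. Kat7 (HBO1; chromosome 11, 95274259 to 95310246), an acetyltransferase of histones H3 and H4 tied to replication origins, stood out among them. It had 137, 142 and 136 CPM with LPS plus BHB, 136, 145 and 141 CPM with LPS and 70.1, 74.4 and 70.5 CPM in control. The rise with LPS was 1.96-fold (log2 fold change 0.97, SE 0.046, adjusted p = 3.5e-14), and BHB left it at -0.024 (SE 0.045) relative to LPS. Kat5 (Tip60), the catalytic subunit of the NuA4 complex, was the only acetyltransferase called for BHB added to LPS. Kat5 had 41.2, 42.4 and 38.5 CPM with LPS plus BHB, 51.7, 52.2 and 50.4 CPM with LPS and 32.8, 32.4 and 31.4 CPM in control. LPS raised it 1.596-fold (log2 fold change 0.67, SE 0.059, adjusted p = 1.2e-09), and with BHB it was 1.26-fold below LPS (log2 fold change -0.34, SE 0.059, adjusted p = 6.5e-05) and higher than control (0.34, SE 0.06). That last value was 0.013 and not called by library totals alone. Rnaseh2c on the other strand covers 18.9% of its exon length, and whether counting used strand is not stated.

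Kat6a (MOZ) and Kat8 (MOF) were not called at either step. Kat6a was at 119.8 ± 8.85 CPM with LPS plus BHB, 113 ± 2.498 CPM with LPS and 118 ± 4.81 CPM in control, and Kat8 at 18.2 ± 1.096, 19.2 ± 1.63 and 19.1 ± 0.378 CPM in the same order (SD). Their log2 fold changes were 0.084 (SE 0.053) and -0.072 (SE 0.085) for BHB added to LPS, and -0.068 (SE 0.053) and 0.0025 (SE 0.083) for LPS over control. Library totals alone gave called falls of both with LPS (-0.34 and -0.27). Without LPS plus BHB replicate 1 Kat6a was called higher with BHB (0.14, adjusted p 0.0355). Kat6b (MORF) was at 26.6 ± 1.42, 29.5 ± 3.93 and 23.7 ± 2.42 CPM, and its rise with LPS was called although LPS replicate 1 lay below control replicate 3 (log2 fold change 0.31, SE 0.093, adjusted p = 0.00473; 4.2e-05 to 0.7 over 16 alternatives). By library totals alone it was 0.041 and not called, and for BHB added to LPS it was -0.15 (SE 0.094), called without LPS replicate 1 (-0.25, adjusted p 0.0369).

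Ncor1, the scaffold that holds Hdac3 and has the most counts of the 29 genes over all libraries, was level across all groups, at 254 ± 6.797 CPM with LPS plus BHB, 251 ± 7.23 CPM with LPS and 247 ± 4.31 CPM in control (SD). Its log2 fold change was 0.019 (SE 0.042) for BHB added to LPS and 0.025 (SE 0.042) for LPS over control, which library totals alone turned into a called fall (-0.25). Brd3, a reader of the BET family, was called slightly higher at each step, although the first step was -0.11 by library totals alone. Brd3 had 81.4, 75.2 and 75.2 CPM with LPS plus BHB, 68.03, 73.3 and 68.2 CPM with LPS and 64.6, 61.9 and 60.9 CPM in control. Its log2 fold change was 0.16 (SE 0.053) for LPS over control and 0.15 (SE 0.053) for LPS plus BHB over LPS (adjusted p = 0.00891 and 0.0274; 0.0015 to 0.214 and 0.0181 to 0.149 over 16 alternatives each). The first lost its call without LPS replicate 2 (0.13, adjusted p 0.0633) or control replicates 2 and 3 (0.11, adjusted p 0.214). The second lost its call by library totals, with no filter, and without LPS replicate 1 (0.13, adjusted p 0.104), LPS replicate 3 (0.12, adjusted p 0.101) or LPS plus BHB replicate 1 (0.11, adjusted p 0.129).

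Set against control, the LPS plus BHB libraries had 8 of the 29 genes higher and 16 lower, where 38.0% and 40.4% of all genes tested were called higher and lower (78.4% in either direction), and the groups did not overlap in 24, beside 80.2% of all genes. Called changes of at least 2-fold numbered 1 higher and 8 lower (18.2%, 23.4% and in either direction 41.5% of all genes). By library totals alone 5 were higher and 20 lower, and the split of all called genes was 3922 higher and 7366 lower, against 5328 and 5662 with TMM scaling. This comparison shares its libraries with the other comparisons. Of the 9 genes that LPS lowered at least 2-fold, Hdac7 came nearest to control with BHB present (-0.48, SE 0.17, beside -2.52, SE 0.19 for LPS over control), followed by Hdac9 (-1.17, SE 0.20, beside -1.87, SE 0.21) and Kat2b (-1.18, SE 0.077, beside -1.08, SE 0.077). Hdac10 moved further away (-2.83, SE 0.24, beside -1.70, SE 0.22), and Hdac11 (-4.56, SE 0.45), Kat2a (-1.92, SE 0.081) and Sirt5 (-1.87, SE 0.21) remained far below control. Sirt1 (1.88, SE 0.07), Kat7 (0.95, SE 0.046) and Crebbp (0.64, SE 0.048) remained above it. Hdac1 was called lower (log2 fold change -0.17, SE 0.068, adjusted p = 0.0321; 1.5e-06 to 0.132 over 16 alternatives). The call was lost under 9 alternatives, among them leaving out control replicate 1 (-0.14, adjusted p 0.106), control replicate 3 (-0.17, adjusted p 0.0574), control replicates 2 and 3 (-0.21, adjusted p 0.0786), LPS plus BHB replicate 2 (-0.12, adjusted p 0.132) or LPS plus BHB replicate 3 (-0.16, adjusted p 0.0502). Kat6b (0.17, SE 0.094, not called) was called with no filter on low counts (0.18, adjusted p 0.0472), without control replicate 3 (0.25, adjusted p 0.0302) and without control replicates 2 and 3 (0.31, adjusted p 0.0429).

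Divided by exon length, so that genes can be compared, control levels ran from 0.578 ± 0.067 CPM per kilobase for Hdac9 to 71.03 ± 1.83 for Sirt2 (SD, n = 3). After Sirt2 the control order was Sirt7 (38.96 ± 1.55), Hdac5 (28.03 ± 0.303), Ep300 (25.99 ± 0.835), Ncor1 (22.1 ± 0.386) and Kat7 (19.8 ± 0.6605). With LPS plus BHB the order was Sirt2 (63.4 ± 2.01), Kat7 (38.2 ± 0.787), Sirt7 (34.02 ± 1.305), Ncor1 (22.8 ± 0.609) and Sirt1 (21.4 ± 1.39), with the last pair closer than the sum of their SDs, as were Sirt1 and the next gene, Crebbp (19.1 ± 1.26). With LPS it was Sirt2 (91.9 ± 1.45), Kat7 (38.8 ± 1.24), Sirt7 (30.6 ± 0.426), Sirt1 (25.1 ± 1.07) and Kat5 (22.8 ± 0.407). Kat5 and the next gene, Ncor1 (22.5 ± 0.647), were closer than the sum of their SDs. Hdac5 ranked 16 of 29 with LPS plus BHB, 17 with LPS and 3 in control, and Sirt1 ranked 5, 4 and 18 in the same groups. Lengths are the merged exons of the annotation, and the isoforms used in these cells were not measured.

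**Figure D3:**
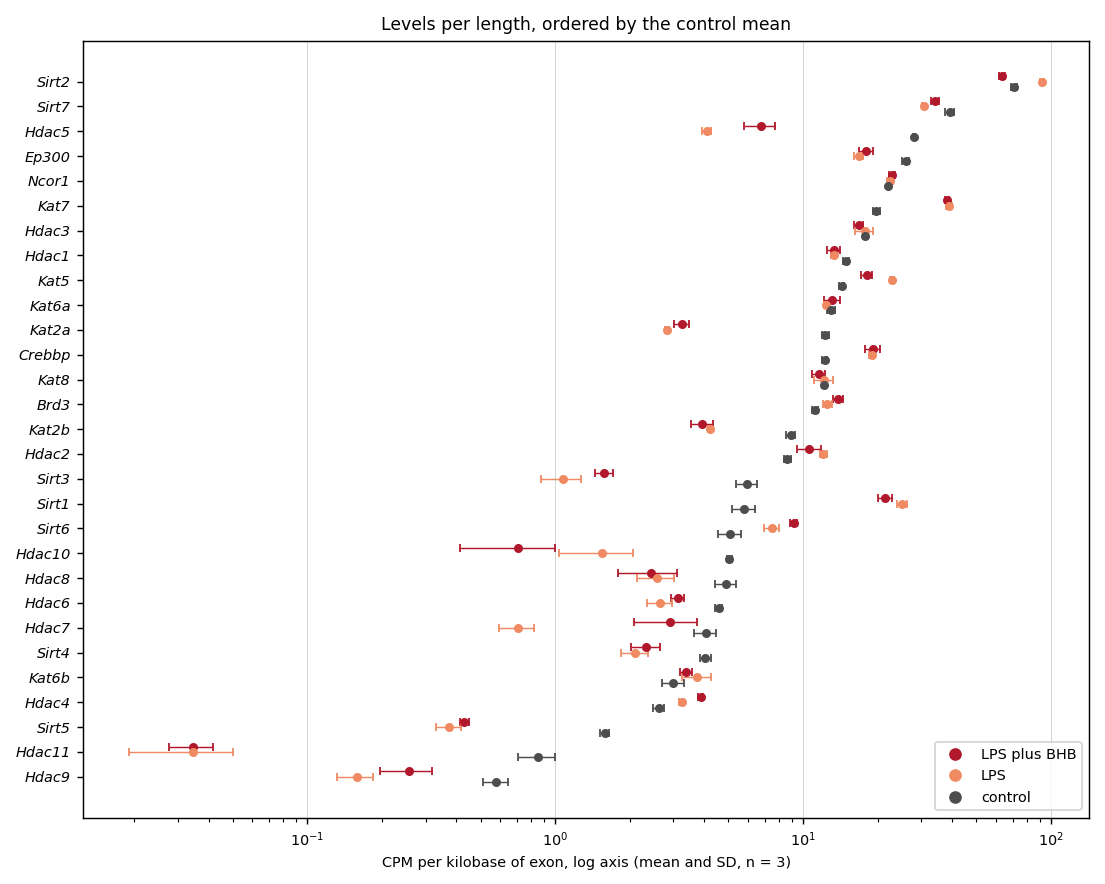
Mean level per kilobase of exon on a log axis, with SD (n = 3), for LPS plus BHB, LPS and control in each gene, ordered by the control mean. Sirt1 lies far right of its control point in both treated groups, while Hdac5, Kat2a, Sirt3, Sirt5 and Hdac11 lie far left.

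Partners of these enzymes were taken from lists of other acetyltransferases, complex subunits, readers and genes of acetyl-CoA and NAD metabolism. In each list the counts stand beside the shares of all genes tested. Values for each gene are means with SD in LPS plus BHB, LPS and control, in that order. Of 35 subunits of deacetylase complexes, 17 were higher and 11 lower with LPS than in control (38.4% and 41.4% of all genes), and 15 were higher and 6 lower with LPS plus BHB than with LPS (26.4% and 24.4% of all genes). The median log2 fold change of the list was 0.036 for LPS over control and 0.087 for LPS plus BHB over LPS, beside -0.063 and 0.0064 over all genes. Rcor2, a CoREST scaffold, was at 33.2 ± 2.12, 7.83 ± 0.532 and 0.696 ± 0.08497 CPM, higher at each step (3.48, SE 0.15 for LPS over control and 2.08, SE 0.097 for LPS plus BHB over LPS). Trerf1, a zinc-finger partner of deacetylase complexes, fell with LPS, to 2.17 ± 0.603 CPM, against 65.8 ± 1.72 CPM in control (-4.92, SE 0.13). Mta3, a NuRD subunit, was higher with LPS plus BHB than with LPS (1.31, SE 0.08), and Elmsan1, the scaffold of the MiDAC complex, was lower (-0.82, SE 0.059).

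Of 34 subunits of acetyltransferase complexes, 20 were higher and 9 lower with LPS than in control (38.4% and 41.4% of all genes), and 7 were higher and 11 lower with LPS plus BHB than with LPS (26.4% and 24.4% of all genes). The median of the list was 0.33 for LPS over control and -0.031 for LPS plus BHB over LPS on the log2 scale, beside -0.063 and 0.0064 over all genes. Brpf1, the scaffold of the Kat6a and Kat6b complexes, rose with LPS (1.38, SE 0.049), and Ing4, a subunit of the HBO1 complex, fell (-1.15, SE 0.066). Msl1, a scaffold for Kat8, was higher with LPS plus BHB than with LPS (1.15, SE 0.052), and Mcrs1, which shares the NSL complex with Kat8, was lower (-0.67, SE 0.079). Of 11 other acetyltransferases 5 rose and 6 fell with LPS (38.4% and 41.4% of all genes), among them Clock (1.26, SE 0.048), Hat1 (1.15, SE 0.075) and the nuclear receptor coactivator Ncoa1 (-1.64, SE 0.069), and 3 were higher and 4 lower with BHB added (26.4% and 24.4% of all genes). The median of the list was -0.14 for LPS over control and -0.017 for LPS plus BHB over LPS on the log2 scale, beside -0.063 and 0.0064 over all genes.

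Of 30 other acetyl-lysine readers tested, 17 were higher and 8 lower with LPS than in control (38.4% and 41.4% of all genes), and 14 were higher and 8 lower with LPS plus BHB than with LPS (26.4% and 24.4% of all genes). The median of the list was 0.25 for LPS over control and 0.067 for LPS plus BHB over LPS on the log2 scale, beside -0.063 and 0.0064 over all genes. Sp140, a bromodomain protein of immune cells, was at 316 ± 10.2, 253 ± 7.45 and 35.7 ± 1.297 CPM (2.82, SE 0.049 for LPS over control). Smarca2, an ATPase of the SWI/SNF remodeller, fell to 8.01 ± 0.838 CPM with LPS, against 76.04 ± 1.98 CPM in control (-3.25, SE 0.088). Zmynd8 fell with LPS (-2.58, SE 0.072) and was higher again with BHB added (1.08, SE 0.075), Brwd3 was higher with BHB added (0.79, SE 0.077) and Brd9 lower (-0.62, SE 0.07). Brd2, a close relative of Brd3, had 0 counts in all 9 libraries and was not tested. Of the 53 protein-coding genes within 500 kilobases of it on chromosome 17 that the table lists, 15 also had 0 counts and 28 had fewer than 10. Of all 46095 symbols, coding or not, 24589 had a count in at least 1 library. The share among all protein-coding genes was not computed. Why Brd2 had 0 counts was not tested, and no level is read for it here.

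The list on acetyl-CoA and NAD, the cosubstrates of writers and sirtuins, holds genes that make them and genes that consume NAD. With LPS 3 of 12 tested were higher and 8 lower (38.4% and 41.4% of all genes), and with LPS plus BHB 5 were higher than with LPS and 0 lower (26.4% and 24.4% of all genes). The 5 were Nampt, Naprt and Nmrk1, which act in NAD synthesis, and Cd38 and Parp1, which consume NAD; Nmrk1 and Parp1 are named after their values were seen. The median of the list was -0.94 for LPS over control and 0.19 for LPS plus BHB over LPS on the log2 scale, beside -0.063 and 0.0064 over all genes. Acss2, which makes acetyl-CoA from acetate, was at 0.879 ± 0.128, 1.18 ± 0.657 and 14.3 ± 0.971 CPM (-3.59, SE 0.24 for LPS over control). Nampt, the rate-limiting enzyme of NAD salvage, was at 368 ± 30.9, 325 ± 15.8 and 114 ± 3.71 CPM (1.51, SE 0.056). Cd38, which consumes NAD, was at 82.96 ± 6.65, 35.8 ± 1.88 and 0.383 ± 0.331 CPM, higher at each step (6.53, SE 0.25 for LPS over control and 1.21, SE 0.13 for LPS plus BHB over LPS). Control counts of Cd38 were 2, 14 and 26, and without control replicates 2 and 3 its log2 fold change for LPS was 9.21. Naprt, of the nicotinic acid route to NAD, fell with LPS (-2.32, SE 0.18) and was higher with BHB added (0.94, SE 0.19).

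**Figure D4:**
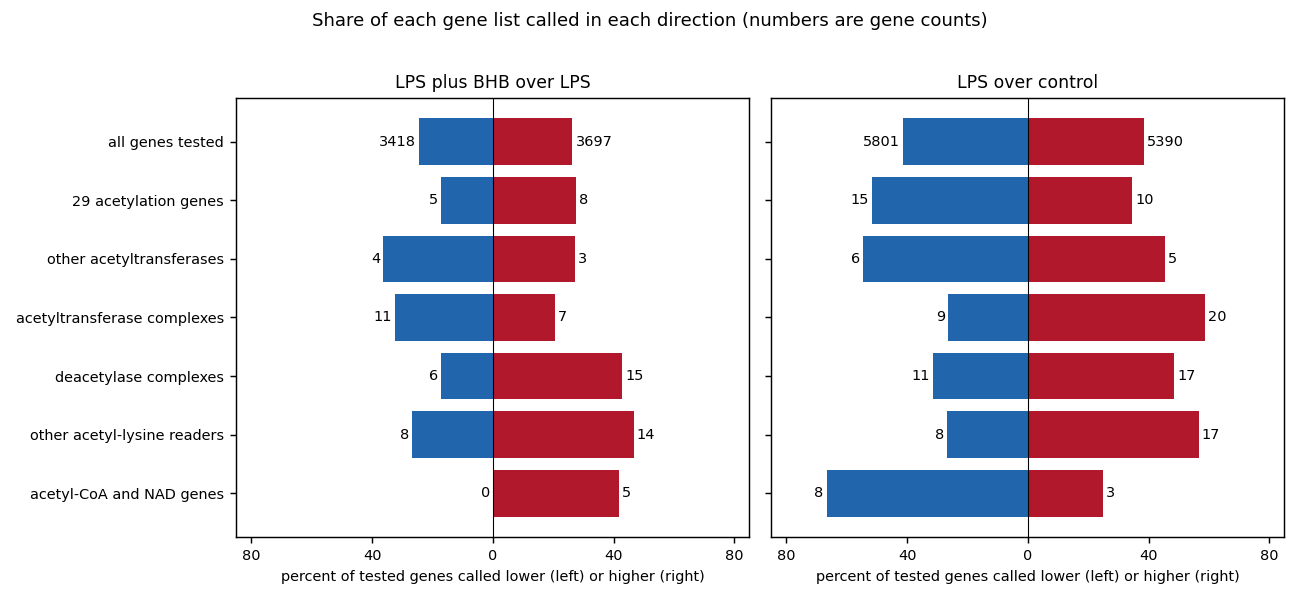
Percent of the tested genes of each list called lower (left bars) and higher (right bars) for LPS plus BHB over LPS and for LPS over control, with the gene counts printed; all genes tested form the top row. The 29 genes have 10 higher and 15 lower with LPS (38.4% and 41.4% of all genes). With BHB added they have 8 higher and 5 lower (26.4% and 24.4% of all genes). The acetyl-CoA and NAD genes, a list that mixes makers and consumers, have 3 higher and 8 lower with LPS. With BHB added they have 5 higher and 0 lower.

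Reports from other cells name 4 genes that rise under deacetylase inhibition. These are Foxo3 and Mt2 with beta-hydroxybutyrate in mouse kidney, and Cdkn1a and H1f0 with inhibitors more widely. Of the 4 genes, 2 were higher and 1 lower with LPS plus BHB than with LPS (26.4% and 24.4% of all genes). Foxo3 had 59.8, 68.2 and 68.1 CPM with LPS plus BHB, 51.4, 53.7 and 50.4 CPM with LPS and 246, 238 and 219 CPM in control (0.33, SE 0.059 for BHB added and -2.18, SE 0.058 for LPS over control). H1f0 had 21.98, 25.3 and 25.4 CPM with LPS plus BHB, 13.7, 16.8 and 13.6 CPM with LPS and 75.3, 76.7 and 68.9 CPM in control (0.72, SE 0.088 and -2.33, SE 0.083). Both were lowered by LPS and were partly raised again with BHB. Cdkn1a went the other way, at 993 ± 50.7, 1474 ± 101 and 107 ± 5.32 CPM (-0.57, SE 0.055 and 3.79, SE 0.062). Mt2 was at 10.7 ± 1.32, 10.7 ± 2.37 and 4.61 ± 0.855 CPM and was not called for BHB added (log2 fold change -0.0077, SE 0.16).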

How the data were processed

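Messenger RNA of 9 libraries of mouse bone marrow-derived macrophages was analysed from 1 deposited table of raw counts per gene symbol. Per the submitters' processing notes reads were aligned with HISAT2 to mm10; not given in the sources used here: aligner version, counting tool, annotation, strand setting. Replicates were not pooled in the deposited counts. Genes were kept with filterByExpr (minimum count 10), scaled with TMM factors and fitted over all 9 libraries with the group as the only term in edgeR 4.0.16 (R 4.3.3, quasi-likelihood, robust dispersion, 6 residual degrees of freedom). Tests are two-sided. The SE is the absolute log2 fold change over the square root of the F statistic and is approximate for low counts. With library totals of 29633411 to 32798920, counting error is small for genes of many counts. It is not small for low genes such as Hdac11, Sirt5 (29 to 38 counts per treated library) or Hdac10 (38 to 149). The test was also run on simulated counts in which few genes were changed, with rises and falls balanced. That run does not check scaling or calls where most genes are called, as between LPS and control.

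The 29 genes, the wider lists and the tests were chosen with earlier results of these data known. All 29 genes are named; of the wider lists, genes are among the 2 largest called rises and 2 largest falls at a mean of at least 5 CPM per list and comparison, together with Foxo3, Mt2, Cdkn1a, H1f0 and the activation genes used to check the libraries. One gene of the wider lists is not reported here. Brd2 and its neighbours were looked up after the values were seen. Gene positions and exon lengths come from GENCODE M21 (GRCm38, the build mm10 names), promoters from RefSeq (GRCm38.p6). Alternatives were DESeq2's size factors or library totals within edgeR, no filter, DESeq2 1.42.0, a replicate block, the 6 libraries compared, and fits without each library or without control replicates 2 and 3. Replicates differed by more than sampling noise (chi-square per degree of freedom 3.16 to 11.2), and each was counted.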

Additional observations from a re-analysis of the deposited data

How the results depend on the processing

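Whether the replicate numbers pair the libraries could not be settled. Deviations of same-numbered libraries correlated from -0.0166 to 0.0392, and those of differently numbered libraries from -0.0379 to 0.043. Between LPS and LPS plus BHB the same-numbered values were 0.0327, 0.0138 and 0.0392. The differently numbered ones there ran from -0.0379 to 0.00767. With a replicate block 10 and 15 of the 29 genes were higher and lower for LPS over control. The counts were 9 and 5 for LPS plus BHB over LPS, and 8 and 16 for LPS plus BHB over control. Without TMM factors the median log2 fold change over all genes shifted by -0.274 for LPS over control and by -0.326 for LPS plus BHB over control, and library totals alone changed the split of called genes to 4283 higher and 7084 lower, and 3922 and 7366 (5390 and 5801, and 5328 and 5662 with TMM). Members were then 7 higher and 19 lower, and 5 higher and 20 lower. Leaving out one library at a time gave 9 to 10 members higher and 14 to 15 lower for LPS over control, 5 to 10 higher and 4 to 5 lower for LPS plus BHB over LPS (5 higher without LPS replicate 1 or LPS plus BHB replicate 3), and 8 to 9 higher and 14 to 16 lower for LPS plus BHB over control. Without control replicates 2 and 3 they were 9 and 14, 8 and 5, and 9 and 14.

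Log2 fold changes that changed sign were as follows, each with the settings where it did. For LPS over control, Brd3 was -0.11 by library totals. Hdac3 was 0.0261 with DESeq2, 0.0261 with DESeq2's size factors, 0.0185 unfiltered, 0.00966 without control replicates 2 and 3 and -0.0535 to 0.0583 without single libraries. Kat6a was 0.000698 without control replicates 2 and 3. Kat8 was -0.27 by library totals and -0.0502 to 0.0618 without single libraries. Ncor1 was -0.25 by library totals. For LPS plus BHB over LPS, Crebbp was -0.0349 by library totals and -0.0216 to 0.0692 without single libraries. Hdac1 was -0.00745 in the fit of 6 libraries, -0.0083 with DESeq2, -0.0083 with DESeq2's size factors, -0.0505 by library totals, -0.0118 unfiltered, -3.19e-05 with a replicate block and -0.0423 to 0.0412 without single libraries. Hdac11 was -0.000951 in the fit of 6 libraries, -0.0012 with DESeq2, -0.000799 with DESeq2's size factors, -0.0413 by library totals, -0.00429 unfiltered and -0.18 to 0.42 without single libraries. Hdac8 was -0.28 to 0.11 without single libraries. Mt2 was 0.00791 with a replicate block and -0.16 to 0.16 without single libraries. Ncor1 was -0.0326 by library totals and -0.00946 to 0.0392 without single libraries. For LPS plus BHB over control, Brd3 was -0.0192 by library totals. Hdac2 was -0.0301 by library totals. Kat6a was -0.31 by library totals and -0.0375 to 0.0694 without single libraries. Kat6b was -0.16 by library totals. Ncor1 was -0.28 by library totals. The cause of these changes was not tested. Other directions of the 29 genes held under all 16 alternatives. Differences in Hdac11, with at most 4 counts per treated library, are beyond the depth, and with 3 libraries a group small changes such as those of Hdac1, Brd3 and Sirt7 lost their calls without single libraries.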
